A study of Mus musculus with 16 samples.

Results

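The cytochrome P450 genes are described here in the cecal epithelium of gnotobiotic mice, which carry no microbes other than those introduced on purpose. Members were the Mouse 430 2.0 probe sets (groups of short oligonucleotides that together report 1 transcript) annotated to a symbol made of Cyp and a digit, with Cyp51, an enzyme of cholesterol synthesis, left out. This gave 99 probe sets for 78 genes, out of 45101 probe sets and 19324 gene symbols on the GeneChip. A probe set was called measured in a colonization state when its signal was above 583.1, the median of all values in the table, on both GeneChips of that state.

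All mice were described as males of the NMRI strain fed the same polysaccharide-rich chow. They were germ-free, untreated and of matched age (GF), or had been colonized at 7 weeks of age for 10 days with Bacteroides thetaiotaomicron (Bt), a glycan-degrading gut symbiont, with Bifidobacterium longum (Bl), a lactic acid-producing species recovered from an infant, or with both (Bt/Bl). Epithelium was taken by laser capture microdissection, and RNA of 4 mice was pooled in each state. The GeneChips are numbered 9128 and 9129 for GF, 9130 and 9443 for Bt, 9134 and 9135 for Bl, and 9132 and 9133 for Bt/Bl. Both GeneChips of a state carried amplifications of the same pool, so the spread between them is technical, and each test below compares pools and not mice. Fewer cells of a type and less RNA per cell cannot be told apart in such samples.

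Cytochrome P450 enzymes hold a heme group and insert 1 atom of oxygen into their substrate, with electrons delivered by P450 reductase in the endoplasmic reticulum or by ferredoxin in mitochondria. Many members of the Cyp1, Cyp2 and Cyp3 families oxidize drugs, plant compounds and other foreign chemicals, many Cyp4 enzymes hydroxylate fatty acids and eicosanoids, and the remaining families mostly act on steroids, bile acids, vitamin D and retinoic acid. The lining of the gut is known as the first tissue in which swallowed chemicals meet these enzymes.

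The GF GeneChips stood apart from all others before any P450 gene was considered, which for Xist and Eif2s3y goes against the description of the mice as male. Xist, transcribed from the inactive X chromosome, had signals of 17157 and 22762 in GF. Colonized mice gave 4908 and 5086 (Bt), 4405 and 3753 (Bl), and 7541 and 11176 (Bt/Bl). The Y-linked gene Eif2s3y reached at most 614 in GF (the lower value was 71.3) but at least 3201 in colonized mice (at most 5657). Fabp6, an ileal bile acid-binding protein, had 68029 and 95107.5 in GF, while colonized mice gave 1179 to 1798. The ratio of 3' to 5' signal of Gapdh, which depends on RNA integrity and amplification, was 5.66 and 7.26 in GF, while colonized mice gave 8.93 to 17.6. The same ratio of Actb ran the other way, with 36.9 and 38.8 in GF against 21.4 to 36.3. Differences of Bt/Bl from Bt and from Bl do not use the GF values, although 1 fit of all GeneChips gave the estimate of the spread. Xist was, however, also higher on both Bt/Bl GeneChips than on those of Bt and Bl, while Eif2s3y overlapped. The part of sex in the differences between pools was not tested. All 8 epithelial markers listed exceeded the median on every GeneChip.

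At least 1 state measured 60 of the 99 P450 probe sets, which belong to 48 genes. The number was 35 (GF), 38 (Bt), 41 (Bl) and 39 (Bt/Bl), and 22 probe sets of 21 genes were measured in all 4 states. The share of P450 probe sets measured, 35.4% (GF), 38.4% (Bt), 41.4% (Bl) and 39.4% (Bt/Bl), lay close to that of all probe sets other than controls (34.0%, 35.7%, 37.3% and 35.3%). P450 probe sets were most often measured in Bl and least often in GF, and so were all probe sets. Those measured in every state belong to Cyp1a1, Cyp20a1, Cyp2c38, Cyp2c55, Cyp2c65, Cyp2c68, Cyp2d9, Cyp2d10, Cyp2d12, Cyp2d13, Cyp2d22, Cyp2d26, Cyp2d34, Cyp2j6, Cyp2s1, Cyp3a13, Cyp4b1, Cyp4f13, Cyp4f16, Cyp4v3 and the probe set shared by Cyp4f37 and Cyp4f16. Counting a probe set as measured on 1 of 2 GeneChips raised the counts to between 61 and 72, and a threshold at the 75th percentile lowered them to between 18 and 23.

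**Figure D1:**
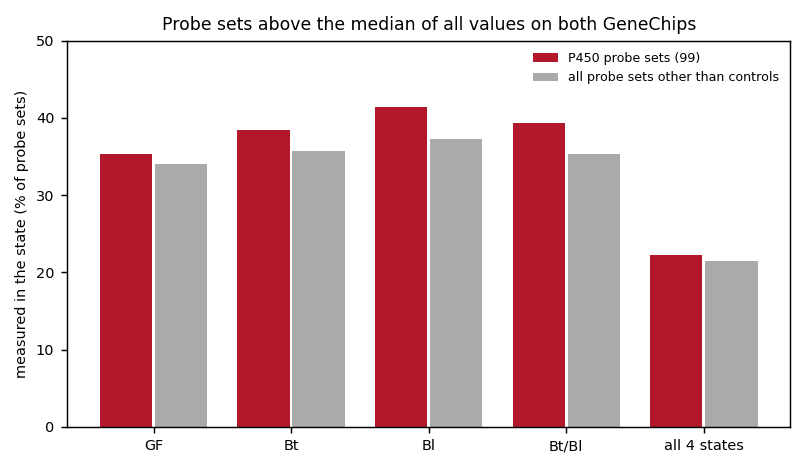
Share of probe sets measured, in percent, in each colonization state and in all 4, with red bars for the 99 P450 probe sets and gray bars for all probe sets other than controls. The red bars stand at 35.4% (GF), 38.4% (Bt), 41.4% (Bl) and 39.4% (Bt/Bl), each a little above the gray bar beside it.

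The subfamilies differed in how many members were measured. In the Cyp2d and Cyp4f subfamilies, 7 of 8 genes each were measured in at least 1 state, and in Cyp2c, 7 of 11. In Cyp2j it was 4 of 5 genes, in Cyp2b 2 of 4, in Cyp4a 2 of 4 and in Cyp3a 2 of 7. None of the 3 genes of Cyp2a, a subfamily known for hydroxylating coumarin and testosterone, was measured in any state. Among genes with an endocrine or sterol role, none was measured in all 4 states: 2 of 5 steroidogenic genes, 4 of 6 genes of cholesterol and bile acid metabolism, 1 of 3 vitamin D genes and both retinoic acid hydroxylases present on the GeneChip, Cyp26a1 and Cyp26b1, reached the criterion in some state.

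The 60 probe sets measured in at least 1 state were tested with limma in 1 fit of all 8 GeneChips and 24865 probe sets, with p values adjusted over all of them and a threshold of 0.05. At this threshold 2 P450 probe sets passed the test of any difference among states, where 0.29% of all probe sets tested did. They were those of Cyp2d10 and Cyp4v3. Cyp2d10 was the 1 P450 probe set called in Bt/Bl against GF, where 0.197% of all probe sets were called and 0.0965% were called as lower. Both were called, as lower, in Bt/Bl against Bt, where 0.0483% of all probe sets were called and 0.0241% as lower. No P450 probe set was called in Bt against GF, Bl against GF, Bt/Bl against Bl, or Bt/Bl against the sum of both mono-associations (the excess of the Bt/Bl change over the Bt and Bl changes added together, on the log2 scale), in which 0.169%, 0.137%, 0.0563% and 0.113% of all probe sets were called. At an unadjusted p under 0.05, limma gave 15, 9, 8 and 12 of the 60 P450 probe sets in these 4 comparisons, where the share of all probe sets was 9.49%, 11.7%, 11.8% and 12.03%, and the lowest adjusted p values were 0.14, 0.131, 0.108 and 0.14.

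The promoters of both called genes are shown because these were the members called in any comparison. Each sequence is the 250 bases before the RefSeq start of transcription (build GRCm38.p6), written 5′ to 3′ on the strand of the gene, with capitals for every match on either strand to TNGCGTG, the core site of the aryl hydrocarbon receptor, to TTANNTAA, the box bound by the clock output factors of the PAR bZIP family, or to TATAA, the core of the TATA box. Both genes lie on the minus strand, Cyp2d10 at chr15:82407195-82407444 and Cyp4v3 at chr8:45333164-45333413.
Cyp2d10: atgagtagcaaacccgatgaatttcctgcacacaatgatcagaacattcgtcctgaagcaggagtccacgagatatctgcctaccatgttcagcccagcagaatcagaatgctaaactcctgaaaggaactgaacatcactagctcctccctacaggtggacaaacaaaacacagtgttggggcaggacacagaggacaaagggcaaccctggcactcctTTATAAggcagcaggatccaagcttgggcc
Cyp4v3: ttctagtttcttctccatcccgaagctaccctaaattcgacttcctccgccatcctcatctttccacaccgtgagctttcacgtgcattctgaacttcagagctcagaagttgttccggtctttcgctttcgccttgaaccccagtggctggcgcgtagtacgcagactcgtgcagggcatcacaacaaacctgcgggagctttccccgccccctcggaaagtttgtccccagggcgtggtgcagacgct

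The capitals of Cyp2d10 are a match to TATAA on each strand, and these overlap between 30 and 25 bases before the start. The planned search held TNGCGTG and TTANNTAA, and TATAA was added to it. Cyp4v3 had no match to the letters of any of the 3 motifs in this window. Over the 32851 promoters of the table, TATAA occurred in 22.8%, TNGCGTG in 4.1% and TTANNTAA in 5.43%. The promoters also differed in CpG dinucleotides, with 3 in Cyp2d10 and 17 in Cyp4v3 against a median of 6 over all promoters (quartiles 2 and 16).

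Cyp2d10 is a member of the Cyp2d subfamily, a cluster of genes related to the human drug-metabolizing enzyme CYP2D6. Its signals were 55801.5 and 53143 (GF), 75833 and 53648 (Bt), 41224 and 32410.1 (Bl), and 13528 and 17448 (Bt/Bl). Both Bt/Bl values lay below every other value, both Bl values lay below those of GF and Bt, and Bt overlapped GF. Cyp2d10 was 3.54-fold lower in Bt/Bl than in GF (log2 fold change -1.83 with a standard error of 0.24, adjusted p = 0.00218) and 4.15-fold lower than in Bt (-2.05, standard error 0.24, adjusted p = 0.00276). Against Bl it was 2.38-fold lower (-1.25, standard error 0.24) with an adjusted p of 0.108, which missed the threshold. The mono-associations differed from GF by 0.23 in Bt and -0.58 in Bl, with adjusted p values of 0.816 and 0.359.

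The calls of Cyp2d10 depended on single GeneChips more than its fold changes did. With each of the 8 GeneChips left out in turn, its difference from GF on the log2 scale stayed between -2.01 and -1.64 and that against Bt between -2.3 and -1.8, while the adjusted p ranged from 0.0329 to 0.188 and from 0.0235 to 0.182. Against GF the call was kept without Bt 9443 or without Bl 9134 and was lost without any of the other 6, and against Bt it was kept without Bt 9130 and lost without any of the other 7. Both calls were also lost without the filter on dim probe sets, with the GeneChips scaled to 1 median or 1 75th percentile, and without an intensity trend in the model of the spread (adjusted p between 0.0522 and 0.323). Calls among all probe sets fell under these settings too, from 49 to between 0 and 12 against GF and from 12 to 0 against Bt.

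The summed signals of markers of several other cell types differed between the same states as Cyp2d10, and their part in the result was not tested. The summed signal of 5 hepatocyte markers was between 14920 and 16350 (GF), 8868 and 9951 (Bt), 6674 and 9153 (Bl), and 3167 and 6178 (Bt/Bl). Of these 5 genes, Ttr, a carrier of thyroid hormone and retinol also made by enteroendocrine cells, was the 1 gene above the median on all 8 GeneChips and was called lower in Bt/Bl than in GF (log2 fold change -2.24, adjusted p = 0.0232). Alb, the gene for albumin, had signals between 236 and 1213 and no such direction (0.24, adjusted p = 0.998). The summed signal of 6 enteroendocrine markers was between 42380 and 46050 in Bt and between 23130 and 29670 in Bt/Bl, that of 5 smooth muscle markers between 8955 and 15100 and between 5014 and 5656, and that of 6 lymphocyte and plasma cell markers between 13760 and 17280 and between 41330 and 58760. The 8 epithelial markers summed to between 988600 and 1092000 in Bt and between 1119000 and 1132000 in Bt/Bl. Goblet cell markers gave 451300 to 472900 in Bt and 344000 to 370900 in Bt/Bl, and fibroblast markers 18550 to 23310 and 14250 to 15060. Stem and progenitor markers gave 8604 to 10710 and 11990 to 22670. In GF the lymphocyte and plasma cell markers summed to between 110200 and 124900. Few single markers passed a test in Bt/Bl against Bt. No tested hepatocyte, enteroendocrine, smooth muscle or epithelial marker was called. Of 3 tested lymphocyte and plasma cell markers, Igha was called, as higher. In Bt/Bl against GF, besides Ttr, the markers Igha, Fabp6, Apoa1 and Apob were called lower. Aqp8 and Slc9a3, markers of the large-intestinal enterocyte, were also called there, 1 as higher and 1 as lower.

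Other Cyp2d genes lie in the same cluster on chromosome 15, where RefSeq places Cyp2d10 between Cyp2d11 and Cyp2d9. Genes of such a cluster can share probe sequence, which was not tested here, and the assignment of a signal to 1 of them is uncertain. Cyp2d9, known as a steroid 16-alpha-hydroxylase of male liver, had 25714 and 30220.4 (GF), 41465 and 25479 (Bt), 33643 and 31390.4 (Bl), and 24549 and 24256 (Bt/Bl). Its Bt/Bl values were the lowest of the 8, but by a small margin (log2 fold change against GF -0.19, 95% interval -0.7 to 0.32, adjusted p = 0.935), and this interval does not reach the change of Cyp2d10.

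Cyp2d26 lies at the far end of the cluster. Its signals were 15563 and 13193 (GF), 19864 and 31701 (Bt), 19107 and 14374 (Bl), and 9758 and 9377 (Bt/Bl). Here too both Bt/Bl values lay below all others, and both Bt values lay above them. The log2 fold change was -1.39 against Bt (standard error 0.26, adjusted p = 0.0983) and -0.58 against GF (adjusted p = 0.63), so neither passed. The former was called when Bt 9130 was left out (adjusted p = 0.0272) or when the fit held only the 4 GeneChips compared (adjusted p = 0.0333), but in those fits the calls among all probe sets also rose from 12 to 352 and to 816.

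Cyp2d13, which RefSeq lists as a transcribed pseudogene, had 7035 and 7813.5 (GF), 4671 and 3749.6 (Bt), 6465 and 3058 (Bl), and 1909 and 2374 (Bt/Bl) by its brighter probe set. All 6 GeneChips of colonized mice were below GF, and both of Bt/Bl were below the rest, with a log2 fold change of -1.8 against GF (standard error 0.37, adjusted p = 0.0756). Cyp2d34 and Cyp2d12 had log2 fold changes above 0 in Bt/Bl against GF. Cyp2d34 had 4246 and 4392 in GF and between 4539.8 and 6861 elsewhere, with 0.34 in Bt/Bl against GF (adjusted p = 0.888). Cyp2d12 overlapped between GF and Bt/Bl (0.35, adjusted p = 0.942). Cyp2d22 had 1376 and 704 (GF), 3056 and 2736 (Bt), 2738 and 2311 (Bl), and 1589.5 and 938 (Bt/Bl) by its brighter probe set, and both mono-associations lay above GF and above Bt/Bl, but no comparison passed. Its dimmer probe set gave 1.58 in Bt/Bl against GF and 1.27 against Bt, with a standard error of 1.11. The Cyp2d members of the cluster thus showed several orders of the states.

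Cyp4v3 is the mouse counterpart of human CYP4V2, a fatty acid omega-hydroxylase whose loss causes a crystalline dystrophy of the retina. Its brighter probe set is by its name (_s_at) of a type that can match several transcripts. This probe set had signals of 7244.5 and 6425 (GF), 12050.5 and 9869 (Bt), 5014 and 2742 (Bl), and 2893 and 2751 (Bt/Bl). Bt lay above GF, both lay above Bl and Bt/Bl, and Bl overlapped Bt/Bl. Cyp4v3 was 3.87-fold lower in Bt/Bl than in Bt (log2 fold change -1.95, standard error 0.32, adjusted p = 0.0478), close to the threshold. The difference from GF was -1.27 (adjusted p = 0.236) and that from Bl -0.39 (adjusted p = 0.655). The call against Bt was lost when any 1 of the 8 GeneChips was left out (adjusted p between 0.0762 and 0.344, log2 fold change between -2.09 and -1.81). The second probe set of Cyp4v3 was dim, with signals between 427 and 1194, and gave 0.24 in the same comparison with a standard error of 0.94. The 2 probe sets of the gene therefore differed in direction, and the interval of the second is wide.

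The brightest P450 probe sets were described together. Those with a mean signal above 2332, which is 4 times the median, numbered 17 from 16 genes, against 6516 of all probe sets tested, a limit set after the values were seen. In Bt/Bl against GF, 15 of the 17 had a log2 fold change below 0, with a median of -0.46, and 53.4% of the 6516 did, with a median of -0.03. Against Bt it was 16 of 17 with a median of -0.43 (45.1% of the 6516, median 0.05), and against Bl 16 of 17 with a median of -0.43 (37.9%, median 0.14). With each GeneChip scaled to the same median the counts were 15, 13 and 12, with medians of -0.51, -0.27 and -0.14 beside -0.04, 0.16 and 0.28 over all probe sets tested. In Bt against GF the count was 6 of 17 (58.3% of the 6516), and in Bl against GF 8 of 17 (64.1%). The latter became 15 when the GeneChips were scaled to the same median, a scaling that moved the median of all probe sets tested from 0.05 to -0.32, beside a median of -0.34 for the 17. Bt/Bl enters all 3 of the first comparisons, so the counts are not independent of each other. The 17 probe sets are not independent either. Several report Cyp4f16, Cyp4f37 is among the 16 genes only through a probe set shared with it, and others belong to the Cyp2d cluster.

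Groups that did not overlap gave a similar picture. Both Bt/Bl values lay below both GF values for 12 of the 17 probe sets (26% of the 6516), below both Bt values for 10 (20.3%) and below both Bl values for 10 (15.7%). Both Bt values lay below both GF values for 5 (24.4%), and both Bl values lay below both GF values for 5 (26.8%). In the other direction, both Bt values lay above both GF values for 5 (15.35%), and both Bl values for 3 (12.43%). Both Bt/Bl values lay above both GF values for 1 (21.21%), and above those of Bt or of Bl for 0 (28.35% and 27.61%). The summed signal of all 99 P450 probe sets was 380900 and 364400 in Bt/Bl and between 457200 and 599000 on the other 6 GeneChips. This sum mostly follows its brightest members. Their mean signals were 95190 (Cyp4b1), 90130 (Cyp2c65), 86330 (Cyp2c55) and 42880 (Cyp2d10, which was called). It is no measure of the family as a whole. Duplicates of these 17 probe sets differed by a median of 0.23 on the log2 scale for GF, 0.32 for Bt, 0.52 for Bl and 0.24 for Bt/Bl.

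**Figure D2:**
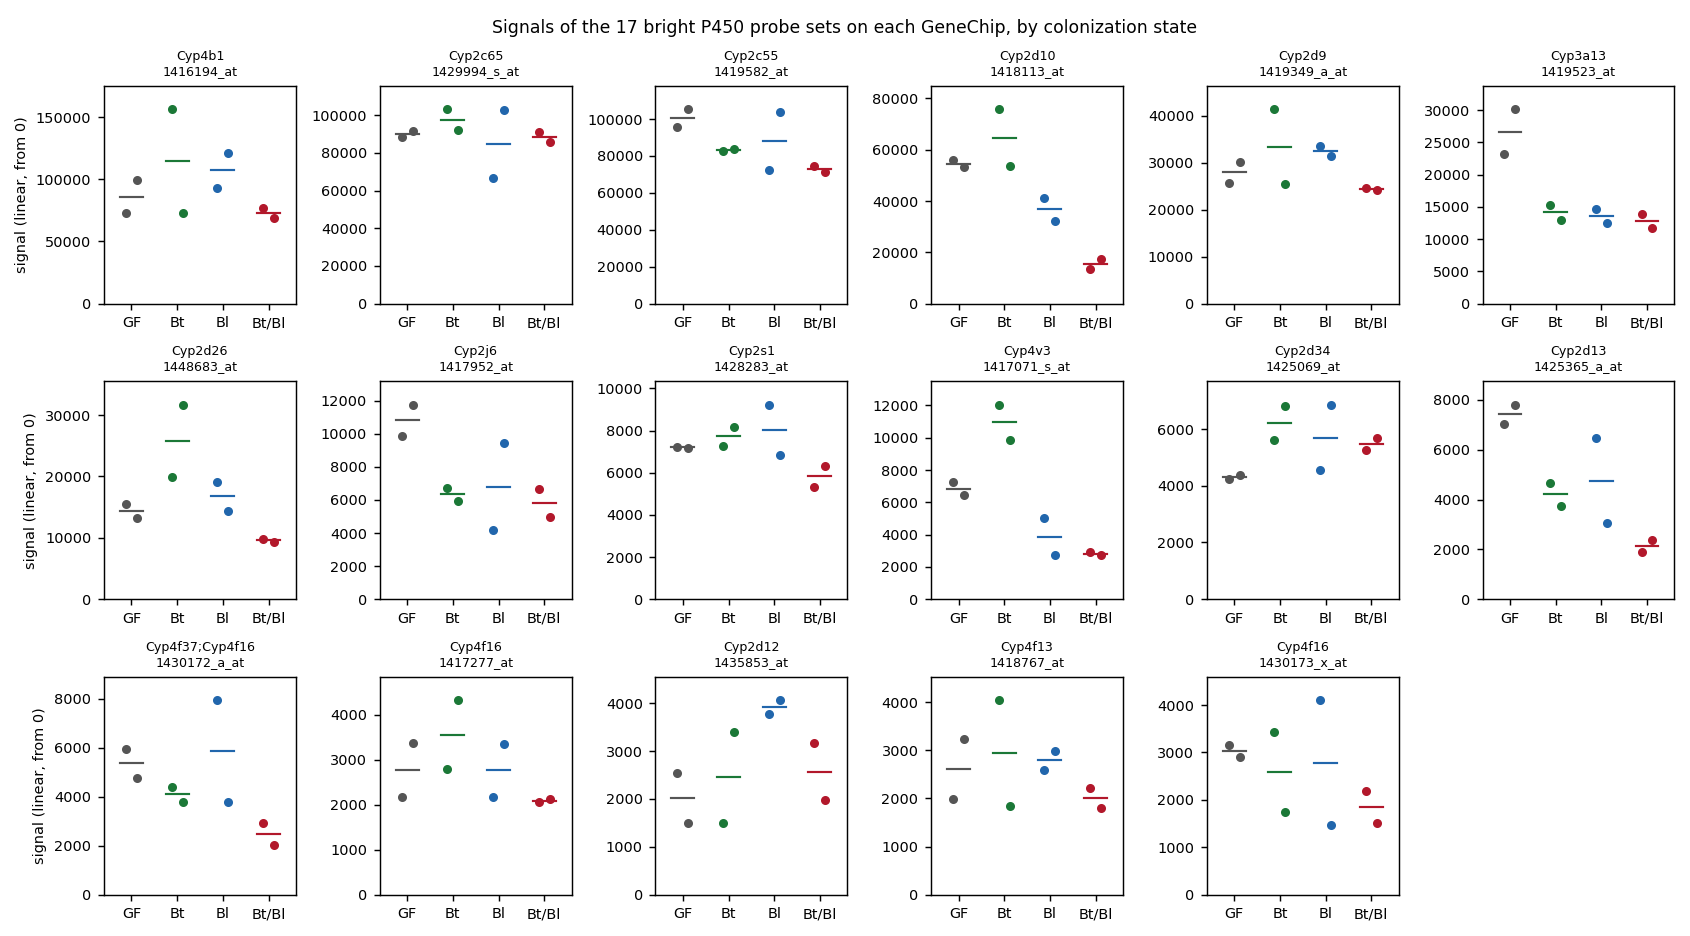
Signals (linear, each vertical axis from 0) of the 17 bright P450 probe sets by colonization state, with 1 point for each of the 2 GeneChips of a state and a line at their mean. Bt/Bl holds the lowest values for Cyp2d10, Cyp2d26 and Cyp2d13, GF holds the highest for Cyp3a13 and Cyp2j6, and GF, Bl and Bt/Bl overlap for Cyp2c65.

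**Figure D3:**
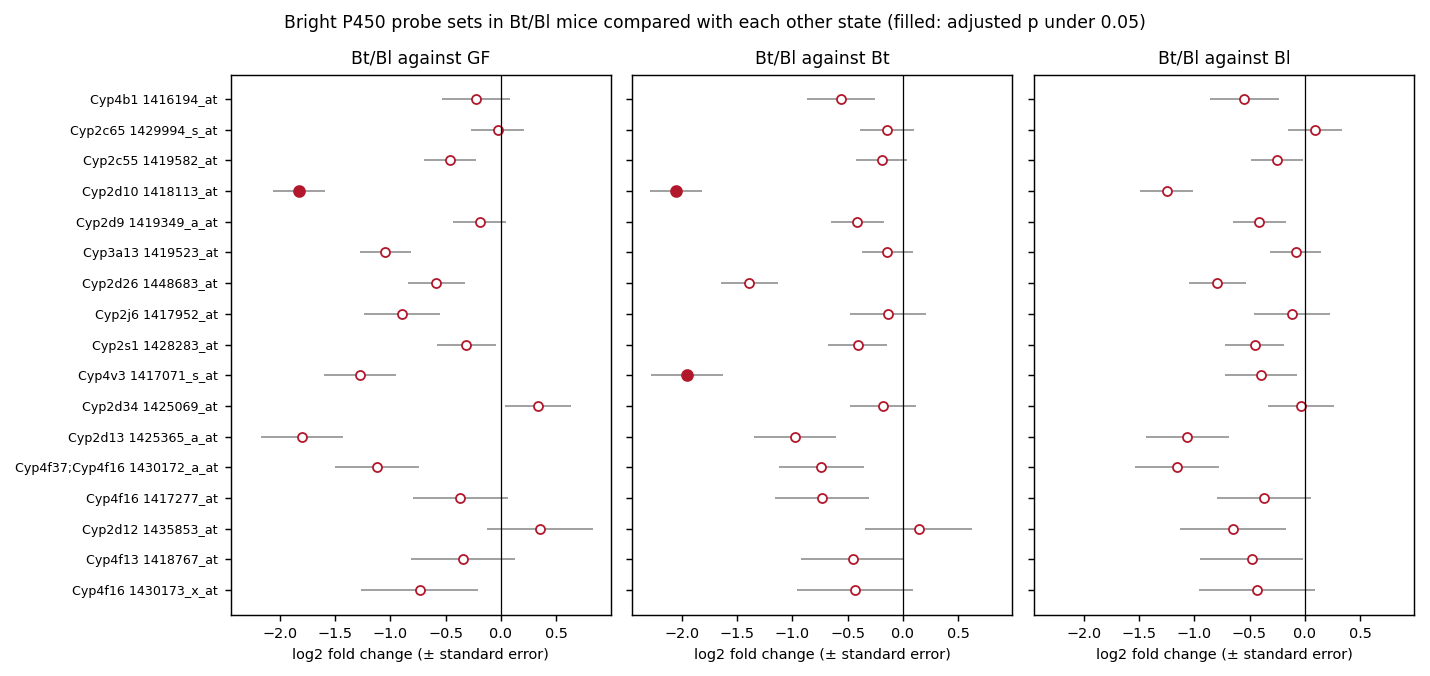
Log2 fold changes with standard errors of the same 17 probe sets in Bt/Bl against GF, against Bt and against Bl, with filled points for adjusted p under 0.05. Filled points mark Cyp2d10 against GF and Bt and Cyp4v3 against Bt, and 15, 16 and 16 of the 17 points lie left of 0.

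Several of the brightest probe sets passed no test. Cyp2c65 and Cyp2c55, neighbors on chromosome 19 that oxidize arachidonic acid, are known from the large intestine. Cyp2c65 had 88273 and 91795.5 (GF), 103167 and 91958 (Bt), 66624 and 102675 (Bl), and 91055 and 85464 (Bt/Bl), and Bt/Bl differed from GF by -0.03 on the log2 scale with a 95% interval from -0.55 to 0.49. Cyp2c55 had 95877 and 105404 (GF), 82838 and 83909.6 (Bt), 72638 and 103953 (Bl), and 74722 and 71296 (Bt/Bl). Its values in Bt/Bl lay below those in GF and Bt (-0.46 against GF, 95% interval -0.96 to 0.03, adjusted p = 0.721).

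Cyp4b1, which hydroxylates fatty acids and activates several plant toxins, ranged from 68817 to 156444. Its duplicates in Bt were 156444 and 73285.5, a spread larger than any difference between the means of states on the log2 scale, and Bt/Bl differed from GF by -0.22 (95% interval -0.89 to 0.44). Cyp2s1, an enzyme of epithelia outside the liver, had 7224 and 7199 (GF), 7275.5 and 8183 (Bt), 9235 and 6836.5 (Bl), and 5335 and 6326 (Bt/Bl). Both Bt/Bl values were the lowest of the 8, with a log2 fold change against GF of -0.31 (adjusted p = 0.882).

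A different order was seen in Cyp3a13, a member of the Cyp3a subfamily expressed in the intestine. Its signals were 23141 and 30149 (GF), 15324 and 12994 (Bt), 14619.9 and 12514 (Bl), and 13923.5 and 11752 (Bt/Bl). GF lay above all colonized GeneChips, which overlapped each other, with log2 fold changes of -0.9 (Bt), -0.97 (Bl) and -1.05 (Bt/Bl), each with a standard error of 0.23 (adjusted p = 0.201, 0.131 and 0.116). Cyp2j6, an epoxygenase of arachidonic acid, had 9846 and 11768 in GF, while colonized mice gave 4158 to 9425, with log2 fold changes of -0.77, -0.78 and -0.9 and adjusted p values of 0.492, 0.39 and 0.54. Its second, dimmer probe set had differences of the opposite sign, 0.52, 1.02 and 0.23, with a standard error of 0.82.

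Cyp3a13 and the brighter probe set of Cyp2j6 were highest on the GeneChips that also differed in Fabp6. The summed signal of the 12 small-intestinal enterocyte markers present was between 738800 and 867100 (GF), 699000 and 743300 (Bt), 832000 and 1095000 (Bl), and 642100 and 679200 (Bt/Bl). Of the 11 tested, Fabp6 and Apoa1 were called lower than in GF in all colonized states, and Apob in Bl and Bt/Bl. The other tested markers were not called against GF. The median log2 fold change of the 11 was 0.06 (Bt), -0.62 (Bl) and -0.36 (Bt/Bl) against GF. The part of these markers in the values of Cyp3a13 and Cyp2j6 was not tested.

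Cyp1a1, Cyp1b1, Cyp3a11 and Cyp2b10, known as targets of xenobiotic receptors, had no probe set in the bright group. Cyp1a1, the classical target of the aryl hydrocarbon receptor, had 3051 and 3110.2 (GF), 1008 and 802 (Bt), 1845 and 647 (Bl), and 762 and 990 (Bt/Bl). Both GF values lay above all 6 of colonized mice, and the log2 fold changes of -1.78, -1.5 and -1.83 had a standard error of 0.69 and adjusted p values of 0.395, 0.417 and 0.535. Cyp1b1, another target of that receptor, had 195 and 246 in GF and 878 and 694 in Bt/Bl by the 1 probe set that passed the filter, which did so through Bt/Bl alone. Another of its probe sets had 424 and 150 in GF and 165 and 171 in Bt/Bl, and the third 114 and 518 in GF and 982 and 87.3 in Bt/Bl, so no direction was shared. The other targets of the receptor on the list, Nqo1, Tiparp, Gsta1, Aldh3a1 and Ahrr, gave no call in any of the 6 comparisons, with a median log2 fold change of 0.23 (Bt), 0.12 (Bl) and -0.52 (Bt/Bl) against GF.

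Cyp3a11, the main Cyp3a enzyme of liver and a target of the pregnane X receptor, had 1119 and 899 (GF), 186 and 30.7 (Bt), 296 and 432 (Bl), and 692 and 1392 (Bt/Bl). Its Bt values lay below GF (log2 fold change -2.61 with the lowest value raised to the floor of 144.7, adjusted p = 0.343), whereas Bt/Bl overlapped GF. Of the probe sets of Cyp2b10, a target of the constitutive androstane receptor, 1 had 765 and 740 in GF and 62.9 and 198 in Bt (-2.15), and passed the filter through GF alone. Another, shared with other transcripts by its name, had 193 and 316 in GF and 2349 and 365 in Bl (1.91, adjusted p = 0.513). In Bt against GF this second probe set gave 1.98 and the third 0.87, the opposite sign of the first.

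Among genes of fatty acids and eicosanoids, Cyp4f14 had 3713 and 2888.5 (GF), 1685 and 2014 (Bt), 1829 and 2193 (Bl), and 169 and 1511 (Bt/Bl) (log2 fold change in Bt/Bl -2.7, standard error 0.79, adjusted p = 0.389). Without Bt/Bl 9132, the GeneChip with the lowest value, the difference was -1.12. Cyp4f15 had 692 and 73.2 in GF and 1357 and 2567.5 in Bt/Bl (2.56, standard error 1.09, adjusted p = 0.605). It passed the filter through Bt and Bt/Bl alone. A probe set shared by Cyp4f37 and Cyp4f16 had 5948 and 4774 in GF and 2945.5 and 2036 in Bt/Bl (-1.12, adjusted p = 0.482).

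The probe set shared by Cyp4a31 and Cyp4a10, the latter a target of the fatty acid receptor PPAR-alpha, had 34.5 and 702 in GF and 2087 and 1875 in Bt (2.63, adjusted p = 0.369). It passed the filter through Bt and Bl alone. A second probe set of Cyp4a31 had 713 and 847 in GF and 309 and 108 in Bt/Bl (-1.88, adjusted p = 0.762). Cyp2c23, an epoxygenase, had 420 and 442 in GF and between 990 and 2177 on all 6 other GeneChips, with log2 fold changes of 1.98, 1.72 and 1.45 for Bt, Bl and Bt/Bl and adjusted p values of 0.376, 0.379 and 0.73. It passed the filter through the colonized states alone, in which it was high, so these differences are a description. Cyp2c23 was named after its values were seen, as were, besides further probe sets of named genes, Cyp2d12, Cyp2d22, Cyp2d34, the brighter probe set of Cyp2d13 and the probe set shared by Cyp4f37 and Cyp4f16.

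Cyp2j5 and Cyp24a1 reached the measured criterion in Bt alone, so they entered the test only through the state in which they were high, and their differences are given as a description. Cyp2j5, an epoxygenase best known from kidney and liver, had 660 and 1201 in Bt and between 30.8 and 226 on the other 6 GeneChips by 1 probe set. Its other probe set differed, with 76.9 and 86.9 in Bt and the highest value, 685, on Bl 9135. Cyp24a1, the 24-hydroxylase that inactivates vitamin D, had 801 and 799 in Bt and between 43.3 and 291 elsewhere by 1 of its probe sets. By the other it had 732 and 1011 in Bt, which overlapped the 732 and 140 of Bl and the 332 and 780.2 of Bt/Bl. Both GF values of the first probe set of each gene lay under the floor of 144.7, so the log2 fold changes of 2.62 and 2.47 were measured from the floor.

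Genes of steroid and bile acid metabolism gave no call. Cyp21a1, the steroid 21-hydroxylase, had 543 and 182 in GF and 1496 and 731 in Bt/Bl (1.73, adjusted p = 0.734). This probe set passed the filter through the colonized states alone. Cyp11b1, the steroid 11-beta-hydroxylase, had 95.2 and 270 in GF and 1451 and 621 in Bl (2.27), the 1 state through which it passed the filter. Cyp8b1, the sterol 12-alpha-hydroxylase of bile acid synthesis, had 50.6 and 517 in GF and 1293 and 884 in Bl (1.97, adjusted p = 0.47). It passed the filter through Bl and Bt/Bl alone.

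Several dim members passed the filter only through states in which they were high, so the size of their differences is a description. This holds for Cyp2c23, Cyp4f15, Cyp21a1, Cyp8b1 and the probe set shared by Cyp4a31 and Cyp4a10. It also holds for Cyp3a11, Cyp4f14, the second probe set of Cyp4a31 and the dimmer ones of Cyp2d22 and Cyp2j6. Cyp2f2, known for the metabolism of naphthalene in airway cells, had 157 and 1147 in GF and 3911 and 1340.4 in Bl (2.43, adjusted p = 0.409). Cyp2j13 had 820 and 1005 in GF and 155 and 651 in Bt (-1.51) and passed the filter through GF alone. The dimmer probe set of Cyp2d13, by contrast, passed through GF, Bt and Bl. It had 1083 and 2412 in GF and 925 and 781 in Bl (-0.93, adjusted p = 0.766). Duplicates of the 43 tested P450 probe sets that were not bright differed by a median of between 0.67 and 0.88 on the log2 scale.

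**Figure D4:**
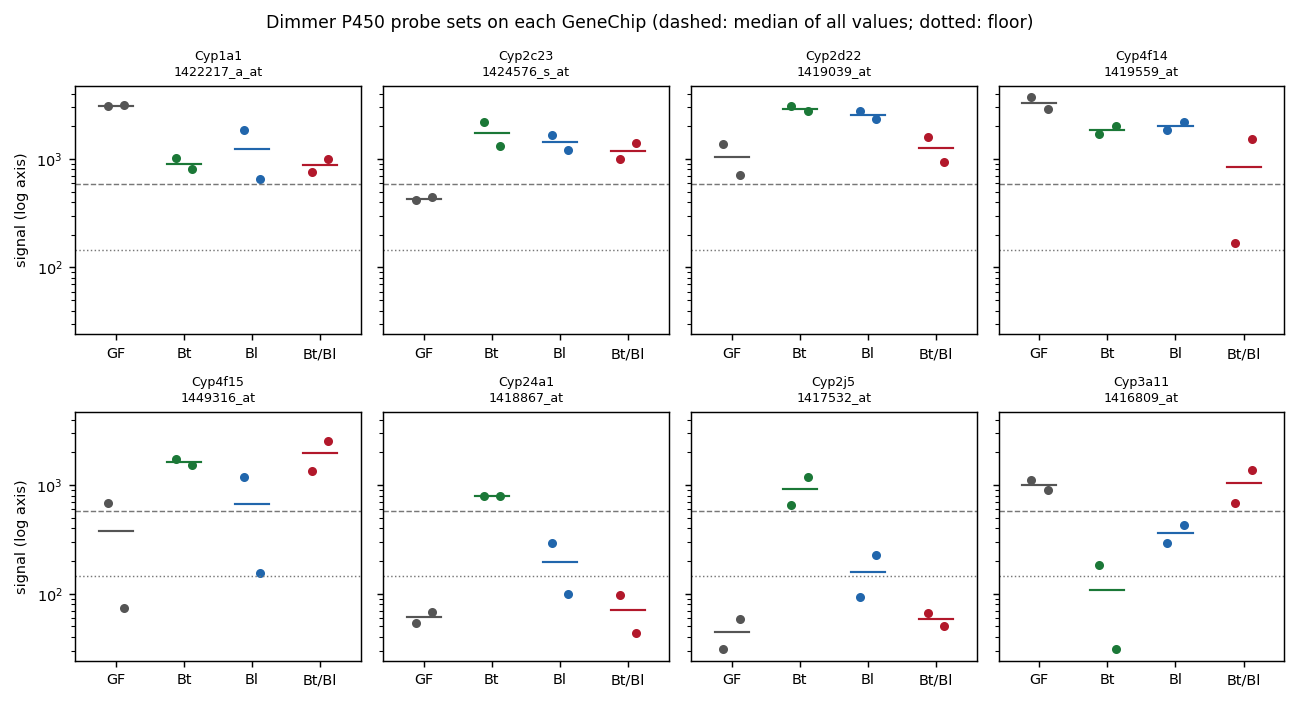
Signals on a log axis of 8 dimmer P450 probe sets by colonization state, with 1 point for each GeneChip, a solid line at the mean of each state, a dashed line at the median of all values and a dotted line at the floor. Cyp1a1 and Cyp4f14 are highest in GF, Cyp2c23 is lowest there, and Cyp24a1 and Cyp2j5 lie above the dashed line on both GeneChips in Bt only.

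The partners that P450 enzymes depend on gave no call in any of the 6 comparisons. The electron transfer genes on the GeneChip, Cyb5a, Cyb5b, Cyb5r3, Fdx1 and Pgrmc1, exceeded the median on all 8 GeneChips, with a median log2 fold change of -0.29 in Bt/Bl against GF and -0.03 against Bt, and Por, the gene of P450 reductase, was not analysed here. Among 10 tested genes of heme supply and breakdown the medians were -0.05 and -0.22. Alas1, the first enzyme of heme synthesis, had 6921 and 6374 in GF and 6418 and 5149.6 in Bt/Bl.

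The 16 tested receptors and factors that regulate P450 genes also gave no call, with median log2 fold changes of -0.11 against GF and 0.06 against Bt. Hnf4a, the hepatocyte nuclear factor that binds many P450 promoters, had between 96165 and 126563 on all 8 GeneChips and differed by -0.06 between Bt/Bl and GF. Vdr, the vitamin D receptor, had between 20825 and 29923.5. Of 7 tested clock output factors, Dbp, a PAR bZIP factor, was called higher in Bt and in Bl than in GF (log2 fold changes 2.78 and 2.23, adjusted p = 0.000112 and 0.00123) and had 3002 and 3863 (GF), 29501 and 18554 (Bt), 18078 and 14120.3 (Bl), and 9300 and 8142 (Bt/Bl). Dbp was also called in Bt/Bl against the sum of both mono-associations (-3.66, limma adjusted p = 0.000524). The part of Dbp in the values of P450 genes was not tested. Of 4 epoxide hydrolases, which act on epoxides that P450 enzymes form, 2 were tested and none was called, and Ephx2 had 4094 and 6704 in GF and 3005 and 3243 in Bt/Bl (-0.75, adjusted p = 0.594).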

How the data were processed

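RNA of laser-captured cecal epithelium was measured on 8 Mouse 430 2.0 GeneChips, 2 for each of 4 colonization states. The values the authors deposited are linear MAS5 signals for each probe set, scaled by them so that every GeneChip has a trimmed mean near 1500, with no detection calls (the study's own analysis used dChip). A second GeneChip type of the series held no P450 probe set and was not used here.

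Genes were named from GEO's platform annotation, in which 34958 probe sets carry 1 symbol, 932 several and 9211 none. Of the 99 P450 probe sets 4 carry several symbols, and all 78 symbols were found in RefSeq. By their names 8 are of the _s_at type and 4 of the _x_at type, which can match several transcripts. Among the former are the brighter probe set of Cyp4v3 and those of Cyp2c65 and Cyp2c23. Signals were raised to a floor of 144.7, the 25th percentile of all values, and put on the log2 scale. After leaving out 64 control probe sets, those above 583.1 on both GeneChips of at least 1 state were kept (24865) and fitted in R 4.3.3 by limma 3.58.1 with an intensity trend in eBayes and 4 residual degrees of freedom, with Benjamini-Hochberg adjustment in each comparison and a threshold of 0.05. Fold changes are on this floored log2 scale. The fit was also run on simulated data, the outcome of which is not given here. The number of GeneChips limits the precision.

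Named are all called probe sets and the others of their genes, the 10 brightest genes, and, against GF in each state, the 4 highest and 4 lowest log2 fold changes among probe sets whose duplicates do not overlap. Cyp2c23, further Cyp2d genes, a probe set shared by Cyp4f37 and Cyp4f16 and other probe sets of named genes were added after their values were seen. The members, gene lists and tests were chosen with earlier results of these data known. Alternatives were other floors, filters, scalings, models of the spread and sets of GeneChips. Promoters were read from a RefSeq table with Biopython 1.88, and figures were drawn with matplotlib 3.10.9.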

Additional observations from a re-analysis of the deposited data

How the results depend on the processing

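Calls of P450 probe sets depended on the processing. In Bt against GF the count of 0 became 4 (Cyp3a11, Cyp2j5, Cyp24a1 and Cyp2b10) when only the GeneChips compared were fitted, and in Bt/Bl against Bl the count of 0 became 2 (Cyp2d10 and Cyp7b1), while calls among all probe sets rose from 42 to 807 and from 14 to 740. In Bt/Bl against GF the count of 1 became 0 without a filter, with each GeneChip scaled to the same median or 75th percentile, and with eBayes without an intensity trend. Calls among all probe sets fell there from 49 to 8, 12, 12 and 0. In Bt/Bl against Bt the count of 2 became 0 under those 4 settings, where calls among all probe sets fell from 12 to 0. It became 1 with the floor at the median, with no floor other than a signal of 1, with the filter at the 75th percentile and with quantile normalization. All calls there were 7, 10, 11 and 10. With only the GeneChips compared it became 5, where calls among all probe sets rose from 12 to 816. In the test of any difference the count of 2 became 0 without a filter and without the trend, and 1 with the floor at the median, the filter at the 75th percentile, either scaling, quantile normalization or the brightest probe set of each gene. Calls among all probe sets fell from 72 to 15 without a filter, to 0 without the trend, and to between 32 and 65 under the others.

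Probe sets measured numbered 20, 23, 20 and 18 in GF, Bt, Bl and Bt/Bl with a threshold at the 75th percentile, and 61, 72, 69 and 63 when 1 of 2 GeneChips sufficed. The 8 bright probe sets below 0 in Bl against GF became 15 with median scaling and 14 with 75th percentile scaling. With 1 GeneChip left out, which leaves its state with a lone GeneChip assumed to vary like the others, counts of calls ranged from 0 to 1 in Bt against GF, Bl against GF, Bt/Bl against GF and Bt/Bl against the sum, and from 0 to 3 in Bt/Bl against Bt, Bt/Bl against Bl and the test of any difference. Bright probe sets below 0 ranged from 6 to 10 in Bt against GF, 8 to 10 in Bl against GF, 14 to 15 in Bt/Bl against GF, 15 to 17 in Bt/Bl against Bt and 13 to 16 in Bt/Bl against Bl. Calls appeared for Cyp2j5 and Cyp2d26 without Bt 9130, and for Cyp7b1, Cyp2d13 and, against Bl, Cyp2d10 without Bl 9135. In these fits calls among all probe sets rose from 42 to 376 in Bt against GF, from 12 to 352 in Bt/Bl against Bt, from 34 to 714 in Bl against GF, from 14 to 779 in Bt/Bl against Bl and from 28 to 516 in Bt/Bl against the sum.

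Over all alternative fits, a log2 fold change of a single probe set changed sign 11 times, in some cases the same fold change more than once. None of the fold changes concerned was called in the main fit. Bt/Bl against GF of Cyp2c65 became 0.0123 with quantile normalization and ranged from -0.0749 to 0.0165 with 1 GeneChip left out. Bt/Bl against Bt became 0.016 and 0.0009 for Cyp2c65, 0.0173 and 0.0022 for Cyp3a13, and 0.0278 and 0.0127 for Cyp2j6 with median and 75th percentile scaling, and for Cyp2j6 ranged from -0.3434 to 0.0812 with 1 GeneChip left out. In the same way Bt against GF of Cyp2d10 ranged from -0.0216 to 0.4777, and Bt/Bl against Bl of Cyp4v3 from -0.8296 to 0.0409. The causes were not tested. No paired analysis was possible because each state was a separate pool, and both of its GeneChips carried amplifications of that pool. With 2 GeneChips of 1 pool in each state and no detection calls, differences between mice were not measurable here, and differences of dim probe sets have wide errors.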
